A study of Mus musculus with 2 samples.

Results

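The 10 genes described here encode 9 ADAMTS proteases, Adamts1, Adamts2, Adamts4, Adamts5, Adamts7, Adamts8, Adamts9, Adamts12 and Adamts15, and 1 related protein without protease activity, Adamtsl2. They were taken by name, as the spots whose transcript identifier belongs to one of these genes, and made up 10 of the 20657 named genes with a spot on the array. The RNA came from ATDC5 cells, a chondrogenic line of the mouse whose cultures lay down cartilage matrix. Of the 2 stable doxycycline-inducible lines compared, one expressed A-CEBP and the other expressed GFP, a fluorescent protein that served as its control. A-CEBP acts as a dominant negative: it dimerises with C/EBP transcription factors so that they cannot bind DNA. Both lines received 2 µg/mL doxycycline for 2 days and were then differentiated with ITS, a supplement of insulin, transferrin and selenium, for 3 weeks. Each group was 1 sample on 1 one-colour Agilent array, so there was no spread between cultures, no test between the groups and no replicate check of any difference given here. The labels do not say whether each line was a single clone, and expression of the 2 transgenes was not checked.

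ADAMTS enzymes are secreted zinc metalloproteases that carry thrombospondin repeats, are made as inactive precursors and work in the extracellular matrix. In cartilage they are best known as aggrecanases, which cut aggrecan, the large proteoglycan that holds water in the tissue, and Adamts5 is the main one in mouse models of arthritis. Other members trim procollagen or cut smaller matrix proteins, and the ADAMTS-like proteins have the repeats without the protease domain.

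All 10 genes had at least 1 probe well above background on both arrays, and 5 of the 10 were at least 1.5-fold apart between the samples. Adamts7 was 3.99-fold lower in the A-CEBP sample than in the GFP sample, and Adamts15 was 3.20-fold higher. The other 8 were within 2-fold: Adamts5 and Adamts4 were 1.64-fold and 1.55-fold lower, Adamts9 was 1.51-fold higher, Adamtsl2 was 1.20-fold lower, and Adamts1, Adamts2, Adamts8 and Adamts12 were within 1.04-fold. By the size rule of 2-fold, 1 of 10 was lower, where 1.70% of the 13860 named genes well above background on both arrays were, and 1 of 10 was higher, where 1.26% of those genes were. At 1.5-fold, a rule added after the values were seen, 3 of 10 were lower against 3.80% of all genes and 2 of 10 were higher against 4.70%. The median log2 difference of the 10 genes was -0.00051, beside 0.046 over all genes, and it kept its sign under 5 of 8 other scalings and background settings. Differences are A-CEBP minus GFP on a log2 scale on which 0 is the 75th percentile of the processed signal of each array, and scaling on spike-in spots added 0.20 to every difference.

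The arrays gave similar but not equal depth. The A-CEBP array had 34418 spots marked well above background (58.0% of 59305), against 32369 (54.6%) on the GFP array, and none was saturated. The lowest probe called well above background was at a log2 level of -5.19 on the A-CEBP array and -4.73 on the GFP array. Detection thus reached lower on the A-CEBP array. Each probe of the 10 genes had 1 spot, so its error is the one that the scanner software models for the difference. Elsewhere on the arrays replicate spots of a probe differed with an SD of 0.102 (root mean square, 260 probes). Neither error covers differences between cultures. Of 10 chondrocyte markers, 9 were well above background on both arrays and Matn3 was on neither. The log2 of their summed signals was 9.01 in the A-CEBP sample and 8.44 in the GFP sample, a sum that Col2a1 mostly sets, and all 9 had differences above 0, with a median of 0.63. For the other cell types the sums are likewise those of 1 or 2 bright probes, so the differences are given beside them. All 6 fibroblast markers were seen on both arrays, with a summed level of 7.94 in the A-CEBP sample and 7.62 in the GFP sample, but 3 were below 0 (Pi16 at -1.76, Pdgfra at -0.37 and Dpt at -0.32) and their median was -0.12. All 4 osteoblast markers with a probe were above 0, with a median of 0.86 and sums of 7.02 in the A-CEBP sample and 6.59 in the GFP sample. Of 7 leukocyte markers with a probe 3 were seen on both arrays. Itgam, which sets the sums of 4.78 in the A-CEBP sample and 4.60 in the GFP sample, had a difference of 0.23. Cd14 had -0.84 and Csf1r -0.14. Itgam and Csf1r each had a dimmer probe, also seen on both arrays, with the other sign, at -0.57 and 0.36. In the A-CEBP sample the dimmer Itgam probe had 53.8 units, against 22989 with the brighter one. The other 4 markers, Ptprc, Adgre1, Fcgr3 and Aif1, were on neither array. Of 4 endothelial markers, Kdr, which sets the sums of 3.00 in the A-CEBP sample and 2.91 in the GFP sample, had a difference of 0.093. Pecam1 had -0.20, and Cdh5 and Tek were on neither array. In the A-CEBP sample this Kdr probe had 7135 units and a dimmer one, also seen on both arrays, had 50.6. The dimmer probe gave -0.39, so the sign of Kdr depends on the probe. Of 5 muscle markers, Tnni1 and Acta1 had differences of 1.31 and 0.79, with sums of 0.066 in the A-CEBP sample and -0.88 in the GFP sample, and Myod1, Myog and Myh3 were on neither. The part of these shifts in the ADAMTS values was not tested, and in such bulk samples fewer cells of a type and less RNA per cell cannot be told apart.

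**Figure D1:**
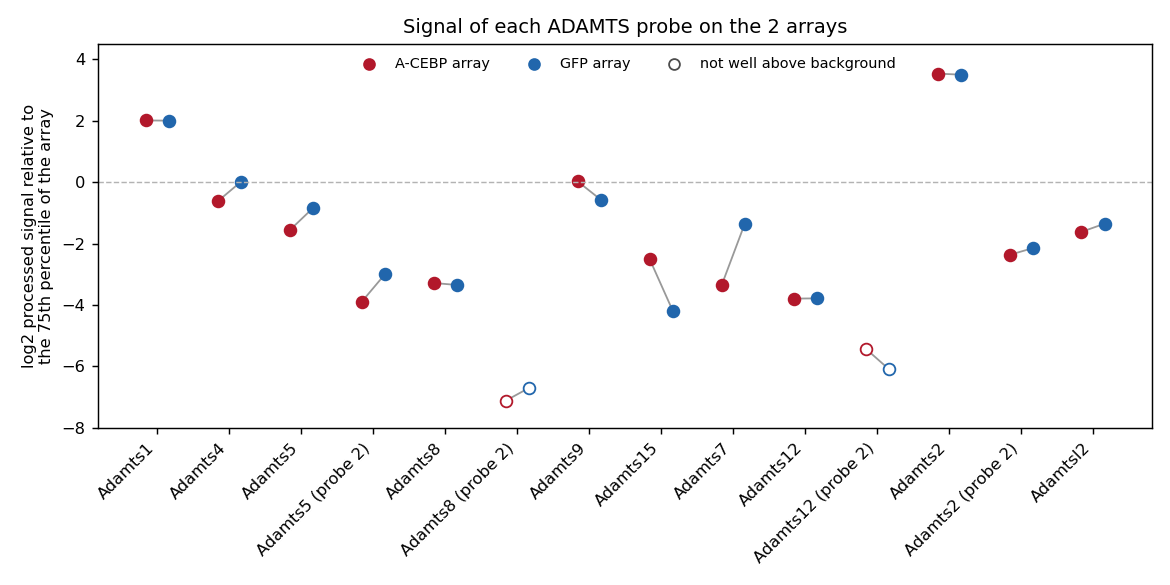
Log2 processed signal of each of the 14 ADAMTS probes relative to the 75th percentile of its array, on the A-CEBP array (red, left point) and the GFP array (blue, right point); open points are not well above background and each point is 1 spot. Adamts7 and both Adamts5 probes lie lower on the A-CEBP array, Adamts15 and Adamts9 lie higher, and the levels of different probes cannot be set against each other.

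The 2 main aggrecanases were lower in the A-CEBP sample. Adamts4, an aggrecanase induced by inflammatory cytokines, had a signal of 588 intensity units in the A-CEBP sample, against 877 in the GFP sample, a log2 difference of -0.63 ± 0.205 (scanner error). Adamts5 had 306 units in the A-CEBP sample and 484 in the GFP sample, a difference of -0.72 ± 0.207. Both differences exceeded their error, and neither reached 2-fold. Adamts5 was the gene of the pair with a second probe, at 60.8 units in the A-CEBP sample and 109 in the GFP sample, which gave -0.89 ± 0.270, so its probes went the same way. Among the 13860 genes, Adamts5 and Adamts4 ranked 399th and 472nd from the lowest difference. Of genes within 0.5 of Adamts5 in mean log2 level, 2.78% of 1297 were at least 2-fold lower, and the SD of their differences was 0.48. Of 1491 genes of the level of Adamts4, 1.54% were at least 2-fold lower, with an SD of 0.47. Both genes thus lay further from 0 than 1 SD of their neighbours in level.

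Adamts1, Adamts8, Adamts9 and Adamts15, which like Adamts4 and Adamts5 belong to the group able to cut aggrecan and versican, had unlike differences. Adamts15 had 159 units in the A-CEBP sample and 48.0 in the GFP sample, a difference of 1.68 ± 0.352. The GFP value was dim, at a log2 level of -4.18, where the lowest probe called well above background on that array was at -4.73. It ranked 22nd from the highest difference of all genes, and of 1049 genes within 0.5 of its mean level, 3.05% were at least 2-fold higher and 3.05% at least 2-fold lower. With normexp, a model-based background correction that here started from the median spot signal and added an offset of 50 units, the difference was 0.46, under the 2-fold rule, and which of these steps moved it was not tested. The 7 spots around it on the slide had a median difference of -0.04. A single probe measured Adamts15, so no other spot checks it.

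Adamts9, a protease of versican and aggrecan, had 921 units in the A-CEBP sample and 587 in the GFP sample, a difference of 0.59 ± 0.205. It ranked 624th from the highest difference, and 1.47% of 1497 genes of like level were at least 2-fold higher. Adamts1, which was first known as a gene induced by inflammation, had 3646 units in the A-CEBP sample and 3495 in the GFP sample, a difference of 0.0071 ± 0.204. Adamts8 had 92.8 units in the A-CEBP sample and 85.6 in the GFP sample, a difference of 0.06 ± 0.266. The differences of Adamts1 and Adamts8 lay within their error, and the 9 spots around that of Adamts1 had a median difference of -0.25. The second Adamts8 probe was well above background on neither array.

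**Figure D2:**
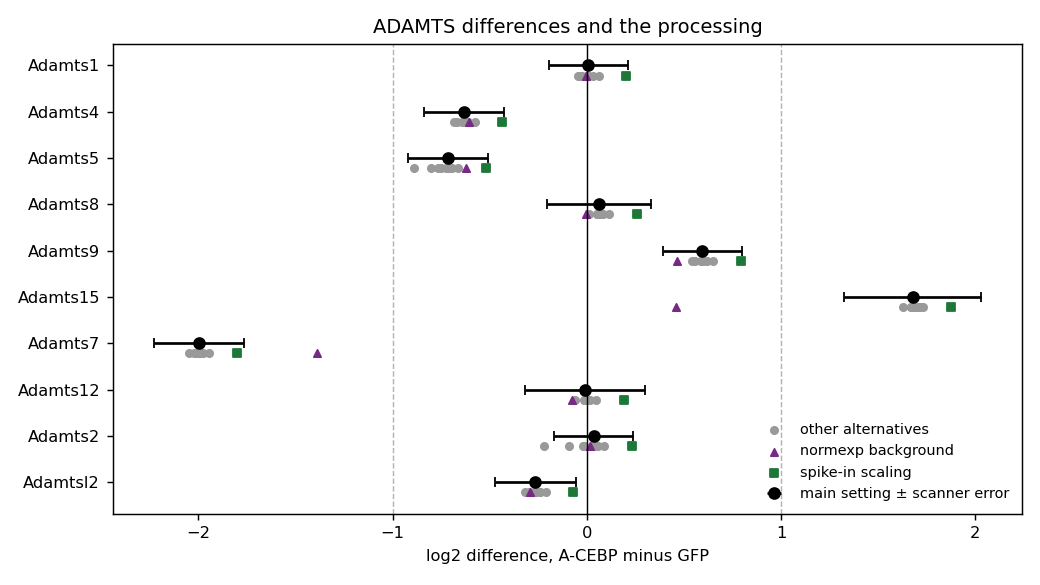
Log2 difference, A-CEBP minus GFP, of each of the 10 genes (black, with the scanner error of the single spot as the bar) and under the 13 processing alternatives (coloured and grey points). Adamts7 stays below -1 in all of them, Adamts15 lies at 0.46 with normexp, and the green squares show the shift of 0.20 with spike-in scaling. For Adamts7 and the other genes with 1 probe, the alternatives on detection, probe choice and outlier spots repeat the main value.

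Genes that lie side by side in the genome had unlike differences. Adamts1 and Adamts5 are neighbours on chromosome 16, with 0 protein-coding genes between them, and had differences of 0.0071 and -0.72. Adamts15 and Adamts8 are likewise adjacent on chromosome 9, and had 1.68 and 0.06. Adamts7 is on the same chromosome, with 614 protein-coding genes between it and Adamts8.

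Adamts7 and Adamts12 are a pair of proteases that bind and cut cartilage oligomeric matrix protein, and they differed from each other here. Adamts7 had 88.0 units in the A-CEBP sample and 338 in the GFP sample, a difference of -2.00 ± 0.231. Like Adamts15, Adamts7 was measured by a single probe, so no other spot checks it. Adamts7 ranked 71st from the lowest difference of all genes, and of 1165 genes of like mean level 3.18% were at least 2-fold lower. Its 12 surrounding spots had a median difference of -0.13. Under the 8 other scalings and background settings the difference ran from -2.05 to -1.39, past 2-fold in each, with the smallest value given by normexp. The rest of the 13 alternatives change the detection rule, the choice of probe or the outlier spots. They repeated the main value, as they could not move a gene with 1 probe of 1 spot. Adamts12 had 65.3 units in the A-CEBP sample and 63.2 in the GFP sample, a difference of -0.0081 ± 0.308, and its second probe was well above background on neither array.

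Adamts2, the procollagen N-proteinase that removes the amino-terminal propeptide of fibrillar procollagens, had 10503 units in the A-CEBP sample and 9875 in the GFP sample. Its difference was 0.035 ± 0.204. A second probe had 175 units in the A-CEBP sample and 196 in the GFP sample, a difference of -0.22 ± 0.220, so the sign of Adamts2 depends on the probe and both values lie within or at their error. Adamtsl2, which in human and mouse binds fibrillin and the latent TGF-beta binding protein LTBP1, had 295 units in the A-CEBP sample and 341 in the GFP sample, a difference of -0.27 ± 0.209.

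**Figure D3:**
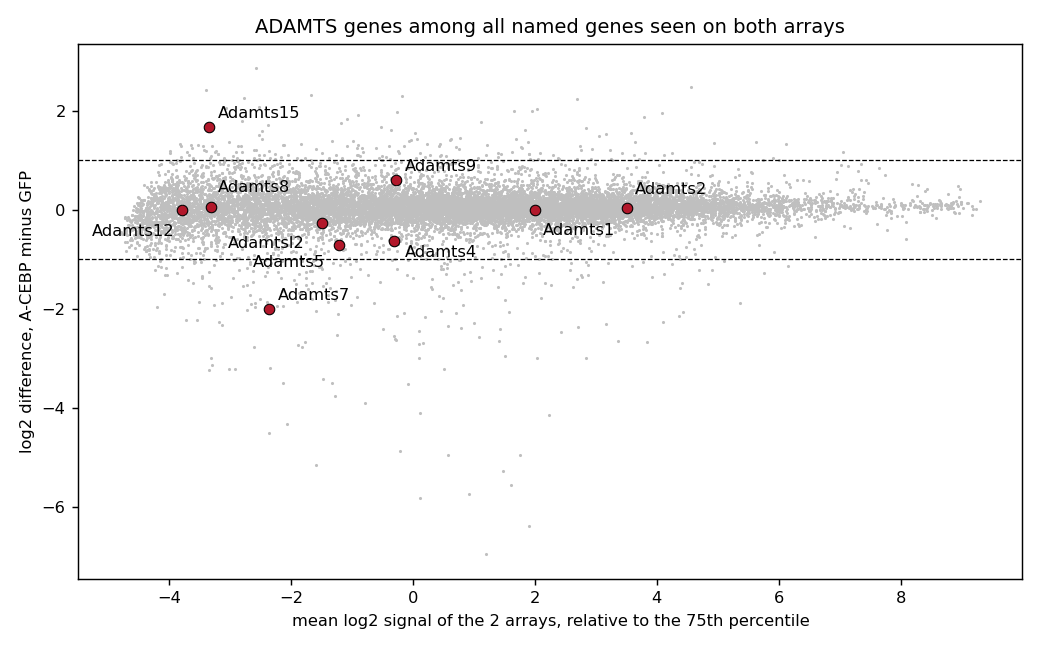
Log2 difference, A-CEBP minus GFP, against the mean log2 signal of the 2 arrays for the 13860 named genes seen on both (grey points) with the 10 ADAMTS genes in red; dashed lines mark 2-fold. Adamts15 and Adamts7 lie outside the lines, at 1.68 and -2.00, and the other 8 lie between them.

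Promoter sequence was available for 5 of the 10 genes: Adamts1, Adamts9, Adamts12, Adamts2 and Adamtsl2. The 250 bases before the start are shown for 3 of them, Adamts9 because it had the largest difference of the 5, and Adamts1 and Adamtsl2 because they hold a TATA box (TATAAA, in capitals, counted on the gene's strand only). The sequences are from RefSeq on GRCm38.p6, at chr6:92943535-92943784 on the minus strand, chr16:85803114-85803363 on the minus strand and chr2:27079129-27079378 on the plus strand.
Adamts9: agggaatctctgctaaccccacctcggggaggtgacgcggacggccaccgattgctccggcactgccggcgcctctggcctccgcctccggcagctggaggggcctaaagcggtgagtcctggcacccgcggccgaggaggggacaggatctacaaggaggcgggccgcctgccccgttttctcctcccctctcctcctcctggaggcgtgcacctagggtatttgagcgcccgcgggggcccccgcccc
Adamts1: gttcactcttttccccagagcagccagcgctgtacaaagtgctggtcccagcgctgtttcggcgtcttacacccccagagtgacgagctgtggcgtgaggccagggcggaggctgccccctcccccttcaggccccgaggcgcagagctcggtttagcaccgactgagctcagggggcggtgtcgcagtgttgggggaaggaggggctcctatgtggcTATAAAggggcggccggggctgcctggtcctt
Adamtsl2: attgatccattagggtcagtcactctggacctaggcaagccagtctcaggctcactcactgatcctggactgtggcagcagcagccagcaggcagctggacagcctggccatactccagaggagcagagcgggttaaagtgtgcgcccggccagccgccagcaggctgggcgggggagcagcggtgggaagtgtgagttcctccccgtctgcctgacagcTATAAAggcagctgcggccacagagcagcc
TATAAA stood 32 bases before the start of Adamts1 and 30 before that of Adamtsl2, and was in 7.59% of 32851 RefSeq promoters of this length. The C/EBP motif TTGCNNAA, sought on both strands, was in 0 of the 5 and in 9.56% of all promoters. The AP-1 motif TGANTCA was in 0 of 5 and 6.75%, and the hypoxia response motif ACGTG in 0 of 5 and 16.6%. These counts describe the letters in these windows only.

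Of 16 other ADAMTS and ADAMTS-like genes, 15 had a probe and 9 were seen on both arrays, with a median difference of 0.056 beside 0.046 over all genes. Of the 9, 0 were at least 2-fold lower and 1 was at least 2-fold higher, where 1.26% of all genes were. Adamtsl1, an ADAMTS-like protein, was 2.44-fold higher in the A-CEBP sample, with 1902 units in the A-CEBP sample and 751 in the GFP sample, and its second probe was on neither array. Adamts18 had 180 units in the A-CEBP sample and 89.7 in the GFP sample, a difference of 0.95, and Adamts17, Adamts16 and Adamtsl4 had 0.47, -0.41 and 0.12. The Adamts17 probe was dim, at 79.1 units in the A-CEBP sample and 54.8 in the GFP sample, with a scanner error of 0.311. A second Adamts17 probe, seen on the A-CEBP array only, had 0.04. Adamtsl3 was seen on the GFP array only, with 33.8 units in the A-CEBP sample and 50.2 in the GFP sample. That is a 1.54-fold ratio, a difference of -0.62 ± 0.437 (scanner error). Adamts14, a second procollagen N-proteinase, gave discordant probes. One had 1489 units in the A-CEBP sample and 1385 in the GFP sample, a difference of 0.05. The other had 30.8 units in the A-CEBP sample, where it was not well above background, and 743 in the GFP sample, at least 25.1-fold lower in the A-CEBP sample. It was singled out after its values were seen: the gap of 4.70 between its probes was the 4th widest of 3850 genes with 2 or more probes, whose median gap was 0.14, and what the probes target was not determined.

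**Figure D4:**
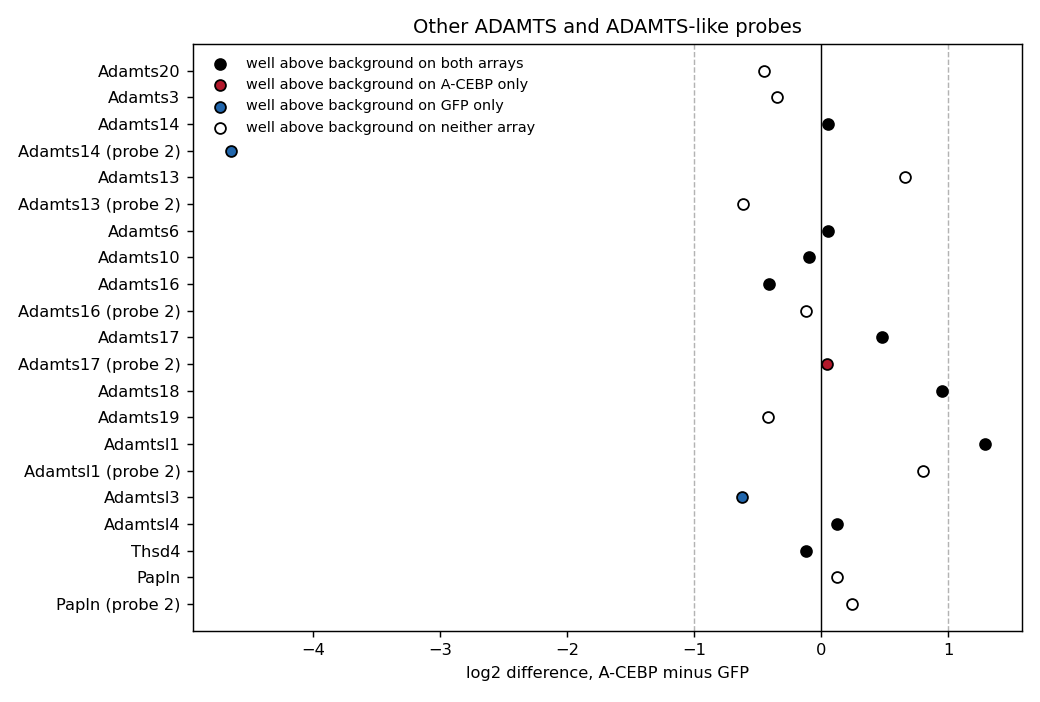
Log2 difference, A-CEBP minus GFP, of each probe of the other ADAMTS and ADAMTS-like genes (black: well above background on both arrays; red: on the A-CEBP array only; blue: on the GFP array only; open: on neither, where the value has no meaning as a difference). Dashed lines mark 2-fold. Adamtsl1 lies at 1.29, and Adamts14 is split between a probe at 0.05 and one seen on the GFP array only, with a 25.1-fold ratio.

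Among genes for the matrix proteins that these enzymes cut, the A-CEBP sample had Acan and Fmod at 2-fold or more above the GFP sample and none at 2-fold or more below it. Of 17 such genes 14 were seen on both arrays, so 2 of 14 were past 2-fold, where 1.26% of all genes were. Their differences were above 0 for 11 and below 0 for 3, where 8190 of all 13860 genes were above 0. Their median was 0.27, beside 0.046 over all genes, and with spike-in scaling 0.46 beside 0.24. The list shares Acan, Col2a1 and Matn3 with the chondrocyte markers, whose median was 0.63, and Col1a1 and Col3a1 with the fibroblast markers. Whether the substrates differ from other cartilage genes was not tested. Several substrates lay within or near the scanner error, such as Fn1 at 0.10 and Bgn at 0.23. Acan, which encodes aggrecan, had 9487 units in the A-CEBP sample and 3720 in the GFP sample, a difference of 1.30. Fmod, which encodes the collagen-binding proteoglycan fibromodulin, had a difference of 1.02. Vcan, which encodes versican, had -0.37 with its brighter probe and -1.04 with its other one. Comp, the substrate of Adamts7 and Adamts12, had -0.04, and Col2a1, Col1a1 and Col3a1, whose procollagens Adamts2 trims, had 0.43, 0.36 and 0.27. Fbn1, which encodes the microfibril protein fibrillin, had 0.47, and Ltbp1, which holds latent TGF-beta in the matrix, had 0.29. Of the 15 cytokine and transcription factor genes linked to ADAMTS expression, 10 were seen on both arrays, 5 above and 5 below 0 with a median of -0.03. The cytokines Il1a, Il1b, Tnf, Osm and Il17a were well above background on neither array. Of the 10 genes seen, 2 were at least 2-fold lower, where 1.70% of all genes were. Il6 had 238 units in the A-CEBP sample and 3950 in the GFP sample, and Cebpd, a C/EBP factor, had a difference of -1.88. Cebpb, another C/EBP factor, had -0.94, but Cebpa, the remaining C/EBP factor of the list, had 0.23 ± 0.217 (scanner error). Sox9, the main chondrocyte transcription factor, had 0.61. Tgfb1 and Runx2, a transcription factor of hypertrophic chondrocytes, had 0.52 and 0.37. A dimmer Runx2 probe, also seen on both arrays, had 0.05 ± 0.209 (scanner error), within its error.

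Of 16 genes that inhibit, process, clear or bind ADAMTS enzymes, 14 were seen on both arrays. Their median was -0.04, and it was above 0 under 2 of the 8 other scalings and background settings. Of the 14, 1 was at least 2-fold lower, where 1.70% of all genes were. It was Fbln1, an ADAMTS1-binding matrix protein, with 112 units in the A-CEBP sample and 257 in the GFP sample, a difference of -1.26, and -1.30 with its other probe. Timp3, the tissue inhibitor most active against aggrecanases, had -0.21, Timp1 had 0.24 and Timp4 had -0.09. Pcsk6, a proprotein convertase, had 0.40, Furin, which cuts ADAMTS precursors, had 0.17, and Sdc1 and Sdc4 had -0.27 and -0.17. Lrp1, the receptor that clears several ADAMTS enzymes from the matrix, had -0.08.

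**Figure D5:**
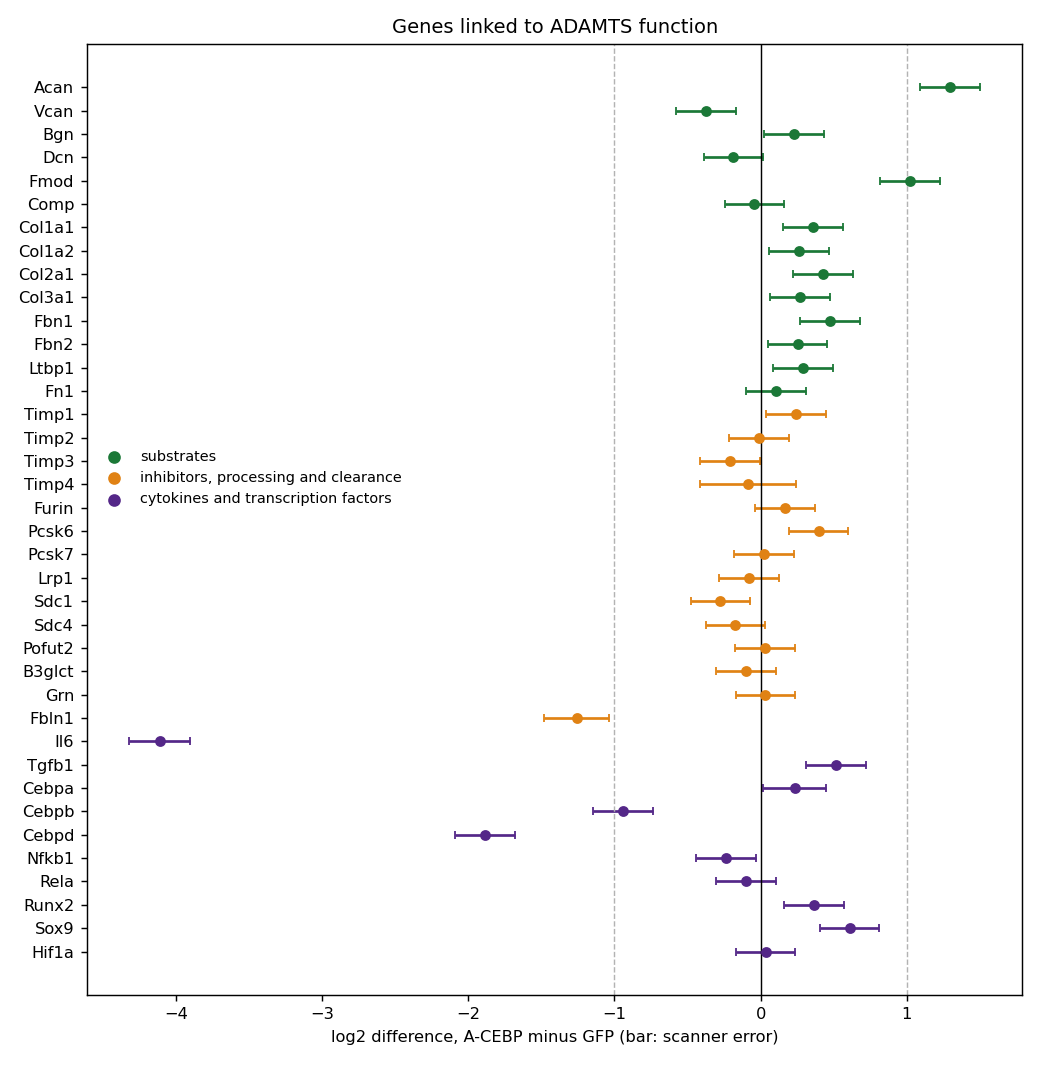
Log2 difference, A-CEBP minus GFP, of the substrate genes, the control genes and the cytokine and transcription factor genes seen on both arrays, with the scanner error as bars and dashed lines at 2-fold. Acan lies at 1.30, Fbln1 at -1.26 and Il6 at -4.11, and most of the rest lie within 2-fold.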

How the data were processed

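Cy3-labelled cRNA of 2 ATDC5 samples was hybridised to 1-colour Agilent mouse arrays. The deposited scanner files give spot intensity (linear) that, per the file headers, Agilent Feature Extraction had background-subtracted and detrended array by array; the submitters' processing notes name version 10.10.1.1. They also hold other columns with 0 or 1 marks for detection, outliers and saturation, per the file headers. The headers place both arrays on 1 slide and in 1 scan. The authors' deposited series table is intensity as well: each column equalled the processed signal times 1 constant, 1.15 for A-CEBP and 1.24 for GFP, with medians of 67.4 and 70.9 and no centring, and the origin of the constants is unknown.

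Here log2 processed signal minus the 75th percentile of its array was used, after leaving out control spots and 293 outlier spots. A gene was read from its brightest probe well above background on both arrays. A probe seen on 1 array was given a minimum fold. That was its bright value over whichever was higher on the dim array, its own value or the lowest detected one. This bound takes no account of spot error, and for Adamtsl3 and Adamts14 it was the observed ratio. Of 55671 probes, 27229 (48.9%) were named through a RefSeq table (GRCm38.p6) that served for gene names and order alone. The members, lists and rules were chosen with earlier results of these data known. Named genes were all members, other family genes at least 2-fold apart or with such a bound and otherwise the 4 largest differences, and list genes at least 2-fold apart and otherwise up to 3 per role. The rule also took the genes nearest in level to 2 members, which are not reported because levels of different probes cannot be set against each other. Pi16, Pdgfra and the other cell type markers given come from the marker lists. Cebpa is given outside the rule, beside the other C/EBP factors of its list. Differences used Python 3.11.15 and limma 3.58.1 (normexp, quantile, cyclic loess); normexp used the median spot signal, since the files have no mean signal column. The procedure was tested on simulated data. With 1 array a group no test between groups was run, and 13 alternatives were tried.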

Additional observations from a re-analysis of the deposited data

How the results depend on the processing

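Adamts7, Adamts4, Adamts5, Adamts9, Adamts15 and Adamtsl2 kept their sign under all 13 alternatives. All of these but Adamts5 had 1 probe of 1 spot. For them only the 8 other scalings and background settings could move the value, and the rest repeated it. Adamts7 ran from -2.05 to -1.39, Adamts15 from 0.46 to 1.87, Adamts5 from -0.89 to -0.52, Adamts4 from -0.68 to -0.44, Adamts9 from 0.47 to 0.79 and Adamtsl2 from -0.32 to -0.07. The sign differed for Adamts1 and Adamts2 under 5 alternatives each, for Adamts12 under 4 of 12 and for Adamts8 under 1 of 12, and the last 2 were not measured under stricter detection. With normexp, 0 of 10 genes were at least 2-fold higher, Adamts15 was at 0.46 and Adamts7 at -1.39. With it 271 named genes were 2-fold apart, against 410 in the main setting and 1486 with no detection filter. Of the genes that inhibit, process, clear or bind ADAMTS enzymes, 0 were 2-fold lower with normexp. Substrates 2-fold higher numbered 1 with cyclic loess and 1 with the authors' deposited values, and other family genes 2-fold higher numbered 2 with no scaling and 2 with spike-in scaling. The higher share of all 2-fold calls was 42.4% in the main setting and 64.2% with spike-in scaling, which put the median of all genes at 0.24. Members at least 1.5-fold lower numbered 1 to 3 and higher 0 to 2. The cause of these shifts was not tested. No paired analysis was possible because each group has 1 sample. The number of arrays limits every value, and spot noise was larger for dim probes: replicate spots differed with an SD of 0.234 at log2 levels of -6 to -3 and 0.0600 above 1.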
